A study of Mus musculus with 7 samples.

Results

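Nonclassical monocytes were described in a pool of mouse blood and heart cells, in which 950 of 11826 barcodes met the selection, out of 22630 barcodes in all libraries of the series. Monocytes are blood phagocytes that derive from the bone marrow. The classical subset carries high Ly6C and CCR2 and enters injured tissue, including the infarcted heart. The nonclassical subset carries little Ly6C, crawls along the inner wall of blood vessels with the integrin LFA-1, and depends on the nuclear receptor Nr4a1 and, for its survival, on the chemokine receptor Cx3cr1.

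The pool held CD11b+ cells of C57BL6/J mice of 8 to 10 weeks, whose sex the labels do not give. The conditions were no surgery (3 mice), sham surgery at day 1 (3 mice) and day 3 (3 mice), and myocardial infarction, by tying off the left descendant coronary artery for good, at day 1 (5 mice) and day 3 (5 mice). Sham mice had the operation but kept the artery open. Viable cells negative for Ter119, B220 and NK1.1 were sorted from blood or from mechanically dissociated ischaemic heart, and Ly6G+ and Ly6G- cells were set to about equal numbers before pooling, so shares below refer to sorted cells only. Cells of each sample carried 1 of 7 hashtag antibodies, and 14 antibodies against surface proteins were read in the same cells. The sources used here pair no hashtag with a tissue or condition. Hashtags are therefore given as 7 samples of unknown condition, with no test between them, and in these samples the tissue, surgery and day cannot be told apart.

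Members were chosen by measured values. A barcode needed at least 200 genes and at most 10% mitochondrial counts (11592 barcodes), and a top hashtag count of at least 10 that was at least 3 times the second (10329). It needed at most 4 counts of the Ly6G antibody, which marks neutrophils (3627 barcodes), and at least 1 unique molecule (UMI) of Csf1r, the receptor for the monocyte growth factor (3279). Of these cells, 950 had at least 2 UMIs of Treml4, Ace and Spn together and at most 1 UMI of Ly6c2. Treml4 encodes a receptor of the TREM family, Ace the angiotensin-converting enzyme, Spn the sialoglycoprotein CD43 and Ly6c2 an antigen of the classical subset. The comparison class, called Ly6c2-high monocytes, was the 1750 cells of the same Csf1r+ population with at least 5 UMIs of Ly6c2.

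**Figure D1:**
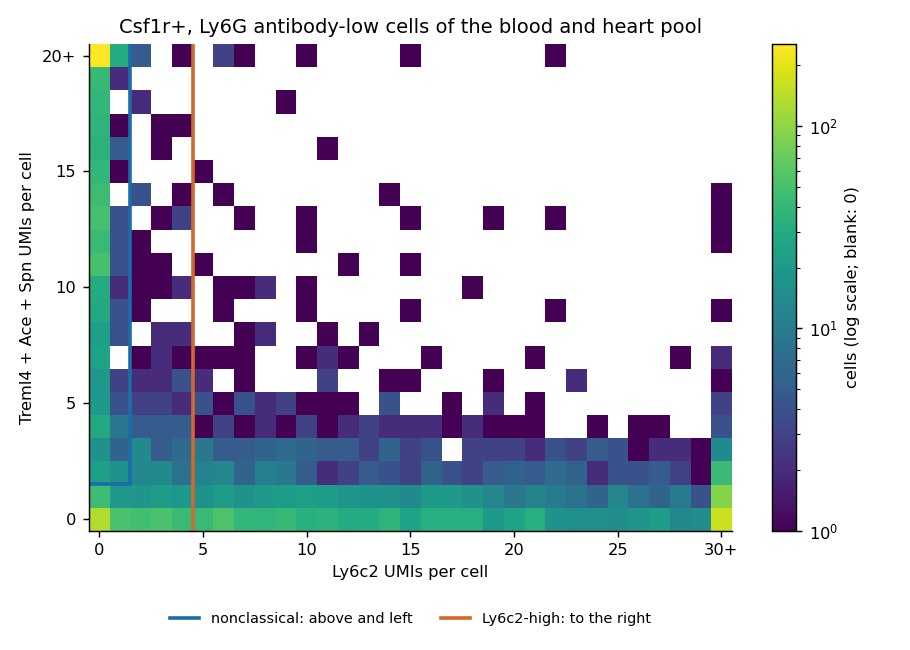
Number of Csf1r+, Ly6G antibody-low cells (colour, log scale) by Ly6c2 UMIs per cell (horizontal axis, 30 or more in the last column) and by the sum of Treml4, Ace and Spn UMIs per cell (vertical axis, 20 or more in the top row). The 950 nonclassical monocytes lie above and left of the blue line and the 1750 Ly6c2-high monocytes to the right of the orange line.

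All 3 markers were present together in 794 members, 2 of them in 112 and 1 in 44. A Treml4 UMI was found in 92.4% of members, against 19.5% of Ly6c2-high monocytes and 8.00% of a background population, the 3764 cells with more than 4 counts of the Ly6G antibody and no Csf1r. An Ace UMI was found in 94.5%, 13.3% and 1.62% of these classes, and a Spn UMI in 92.0%, 33.9% and 3.93%. Median depths were 6978 UMIs in members, 14250 in Ly6c2-high monocytes and 3440 in the Ly6G-high cells, and a limit of 1 Ly6c2 UMI favours shallow cells. Levels below are given as CPM, the UMIs of a gene scaled to the total UMIs of a class. This scaling does not undo a selection made on raw UMIs.

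The selection was not an abrupt border. The median member had 15 marker UMIs, and 825 members had 6 or more while 125 had 2 to 5. Just inside the limit, the 40 members with 2 marker UMIs summed to 4369 CPM over the 24 genes of a nonclassical programme list, to 33043 CPM over the 18 genes of a classical list and to 16580 CPM over 7 genes of MHC class II antigen presentation. Just outside, the 65 cells with 1 marker UMI gave 3568, 35342 and 13407 CPM. The 825 members with 6 or more gave 17318, 19755 and 3401 CPM. Cells with 2 to 5 marker UMIs thus carried the nonclassical label less clearly than the others, and results that rest on them are given with and without them.

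Ly6c2 was at 0 in 850 members and at 1 in 100. The 53 cells just past that limit, with 2 Ly6c2 UMIs and the markers, had 6850 CPM of the nonclassical and 44689 CPM of the classical list. Markers and Ly6c2 also occurred together past both limits, since 417 of the Ly6c2-high monocytes (23.8%) had at least 2 marker UMIs.

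Hashtags 6 and 7 stood apart. Members with 6 or more marker UMIs were 76 of 92, 220 of 244, 140 of 150, 211 of 237 and 151 of 167 in hashtags 1 to 5, but 10 of 29 in hashtag 6 and 17 of 31 in hashtag 7. The summed marker level was 694 and 810 CPM in hashtags 6 and 7, against 1860 to 2253 CPM in the other 5. Members of these hashtags were also deeper, with medians of 9768 and 10640 UMIs against 6561 to 7891. The part of depth and of the low-marker cells in what follows was not tested.

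Nonclassical monocytes made up 13.03% of Csf1r+ cells in hashtag 1 (exact 95% interval 10.6 to 15.7), 46.5% in hashtag 2 (42.1 to 50.8), 28.2% in hashtag 3 (24.5 to 32.3), 40.2% in hashtag 4 (36.2 to 44.3) and 41.2% in hashtag 5 (36.4 to 46.2). The shares were 11.6% in hashtag 6 (7.94 to 16.3) and 11.4% in hashtag 7 (7.85 to 15.7). Hashtags 1, 6 and 7 were the low group and their intervals overlapped. Hashtags 2, 4 and 5 were the high group, also with overlapping intervals, and hashtag 3 lay between the groups. Counting the members with 6 or more marker UMIs alone, the shares were 10.8% in hashtag 1 (8.58 to 13.3), 41.9% in hashtag 2, 26.4% in hashtag 3, 35.8% in hashtag 4, 37.3% in hashtag 5, 4.02% in hashtag 6 (1.94 to 7.26) and 6.23% in hashtag 7 (3.67 to 9.78). Hashtag 6 then lay below hashtag 1 with no overlap of the intervals, and the order of the 3 groups stayed. These intervals cover counting error only, not the spread between mice.

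**Figure D2:**
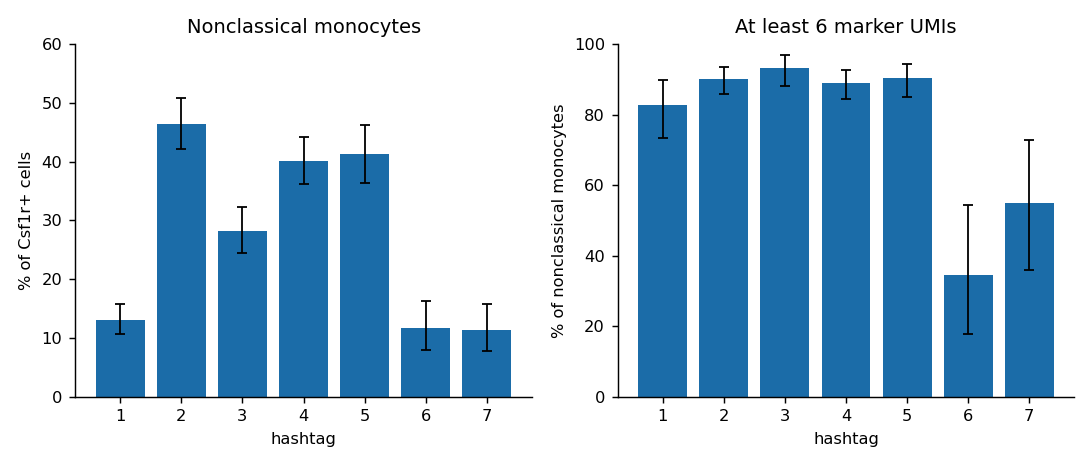
Left, nonclassical monocytes as a percentage of Csf1r+ cells in each hashtag. Right, the percentage of these members with at least 6 UMIs of Treml4, Ace and Spn. Bars are shares with exact 95% binomial intervals. Hashtags 1, 6 and 7 were lowest on the left (11.4% to 13.03%), and hashtags 6 and 7 were lowest on the right (34.5% and 54.8%, against 82.6% to 93.3%).

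The number of members relative to the comparison class also differed between hashtags. There were 0.176 nonclassical cells for each Ly6c2-high monocyte in hashtag 1, 1.00 in hashtag 2, 0.470 in hashtag 3, 0.933 in hashtag 4, 0.994 in hashtag 5, 0.246 in hashtag 6 and 0.248 in hashtag 7. With members of 6 or more marker UMIs the order of the 3 lowest turned, with 0.145 in hashtag 1, 0.0847 in hashtag 6 and 0.136 in hashtag 7. Ly6c2-high monocytes were 74.1% of Csf1r+ cells in hashtag 1, but 47.4% in hashtag 6 and 45.8% in hashtag 7. In hashtags 6 and 7 a larger part of the Csf1r+ cells therefore belonged to neither class.

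Members were compared with Ly6c2-high monocytes of the same hashtag gene by gene. The comparison is a description with no p-value, because both classes were chosen on RNA of the same cells. A gene was counted as higher or lower when its log2 ratio of CPM was at least 1, or at most -1, in every one of the 7 hashtags, with 0.5 UMI added to each sum. Of 6011 genes with at least 20 CPM in 1 class, 150 were higher (2.5%) and 52 lower (0.865%), and the median gene had a log2 ratio of 0.17. These shares are the background for the counts of each list below, and a count of 0 in a short list is near them. Without hashtags 6 and 7 the counts were 348 and 165, and all 150 and 52 genes were among them. With 6 or more marker UMIs required in all 7 hashtags they were 222 and 84, with 135 of the 150 and 40 of the 52 among them.

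Genes of the nonclassical programme were higher in 16 of 24 cases, with none lower and a median log2 ratio of 3.52. Without hashtags 6 and 7 it was 19 of 24. The list was drawn up with knowledge of this subset and of these data, so its direction is no independent evidence. Its higher genes Cd36, Fabp4, Nr4a1, Tcf7l2, Hes1, Itgal, S1pr5, Fcgr4 and Bcl2 are also on lists below. The counts of those lists therefore repeat part of this one and are not separate findings. Cd300e, an activating receptor of myeloid cells on chromosome 11 (115051917 to 115062177, GRCm38), had 435, 373, 555, 366, 555, 86.0 and 180.0 CPM in the members of hashtags 1 to 7. In Ly6c2-high monocytes it had 1.00 to 3.33 CPM. The log2 ratio had a median of 7.18 (6.03 to 8.55). The classes did not overlap, but here and below the named genes were picked for large ratios in every hashtag. A lack of overlap in them follows largely from that choice.

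Lipid handling genes were among the largest differences. Fabp4, a fatty acid binding protein on chromosome 3 (10204088 to 10208576), had 392, 357, 428, 269, 382, 105 and 124 CPM in members of hashtags 1 to 7 and 0.769 to 3.13 CPM in Ly6c2-high monocytes. Its median log2 ratio was 7.07 (5.79 to 8.71). Cd36, the scavenger receptor that takes up fatty acids and oxidised lipoproteins, lies on chromosome 5 (17781690 to 17888801). It had 216, 232, 213, 213, 225, 111 and 87.2 CPM in members against 0.455 to 4.01 CPM, a median log2 ratio of 6.70. Neither gene overlapped between the classes. Both were lowest in hashtags 6 and 7 over all members. With 6 or more marker UMIs, Cd36 was at 287 CPM in hashtag 6, on 27 UMIs in 10 cells, and at 91.2 to 259 CPM in the others. Fabp4 was then at 266 and 211 CPM in hashtags 6 and 7 (25 and 37 UMIs) against 308 to 462.

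Of 13 lipid handling genes counted, 4 were higher and none lower. The other 2 were the lipid-sensing nuclear receptors Pparg (log2 ratios 2.28 to 5.79) and Nr1h3 (2.49 to 5.23), at 87.5 and 35.4 CPM in members. Apoe, the apolipoprotein, was the most abundant gene of the list at 4461 CPM in members against 1426 CPM, but its ratio fell to 0.77 in 1 hashtag (median 1.54). Apoe passed the rule once hashtags 6 and 7 were left out.

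The transcription factors of the subset followed. Nr4a1 had 488 CPM in members and 66.3 CPM in Ly6c2-high monocytes (median log2 ratio 2.86, 1.34 to 3.21). Tcf7l2, a partner of beta-catenin, had a median of 5.11 (2.38 to 6.11), and the Notch target Hes1 one of 4.20 (1.46 to 4.73). Bhlhe40 (4.39) and Klf4 (1.75) were the others of 5 higher among 17 factors counted, and none was lower. Cebpb, the most abundant at 2010 CPM, and Pou2f2, at 1558 CPM, were above the comparison class in all 7 hashtags but not 2-fold in each (lowest log2 ratios 0.09 and 0.98). Spi1, which encodes the myeloid factor PU.1, and Irf8 had medians of 0.60 and -0.02 and were not counted as different.

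Survival genes split. Bcl2, which blocks mitochondrial cell death, had 184 CPM in members against 7.31 CPM (median log2 ratio 4.54, 2.57 to 5.57) and was the only 1 of 7 genes of the survival list that was higher. Mcl1, a relative of Bcl2 at 672 CPM in members, had a median of 0.03. The Bcl2a1 genes, which encode another relative of Bcl2 and were not on that list, were among the 15 largest differences. Bcl2a1b had a median of 5.71 (1.17 to 7.26), Bcl2a1a of 5.41 (1.78 to 6.34) and Bcl2a1d of 5.12 (2.15 to 5.63).

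These 3 copies lie on chromosome 9 and are nearly the same sequence. The coding parts of their last exons are shown because they tell whether reads near the 3′ end can be assigned to a copy; the capital letter marks the base at which the copies differ, read 5′ to 3′ on the coding strand from GENCODE M21 transcripts (GRCm38). They lie at chr9:88962172-88962267 (plus strand), chr9:89207582-89207677 (plus strand) and chr9:88723437-88723532 (minus strand).
Bcl2a1a: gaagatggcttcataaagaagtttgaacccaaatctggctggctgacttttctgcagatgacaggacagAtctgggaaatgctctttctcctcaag
Bcl2a1b: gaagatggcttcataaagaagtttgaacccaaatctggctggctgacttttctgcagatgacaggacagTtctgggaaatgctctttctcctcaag
Bcl2a1d: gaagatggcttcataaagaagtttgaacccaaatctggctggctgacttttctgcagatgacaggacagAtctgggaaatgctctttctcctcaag
The 96 bases differed at 1 position, and Bcl2a1a and Bcl2a1d were identical. Over the last 200 bases of the transcripts, 196 were shared by Bcl2a1a and Bcl2a1b, 199 by Bcl2a1a and Bcl2a1d and 197 by Bcl2a1b and Bcl2a1d. The split of counts between the copies is therefore uncertain.

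Summed over the 3 copies, members had 559, 507, 496, 358, 517, 338 and 416 CPM in hashtags 1 to 7, and Ly6c2-high monocytes had 7.34, 9.23, 7.97, 16.7, 11.4, 115 and 20.6 CPM. The classes did not overlap. Hashtag 6 gave the smallest log2 ratio, 1.56, because its Ly6c2-high monocytes were at 115 CPM, against a median of 5.48 over the 7 hashtags.

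Genes of adhesion and migration were higher in 4 of 19 cases and lower in 1. Itgal, the alpha chain of LFA-1, had 1185 CPM in members and 171 CPM in Ly6c2-high monocytes (median log2 ratio 2.84, 1.29 to 2.92). S1pr5, a receptor that guides cells out of the bone marrow, had 203, 202, 214, 158, 220, 38.2 and 50.6 CPM in members of hashtags 1 to 7 against 1.61 to 5.89 CPM (5.07, 3.30 to 5.64). Pecam1 (3.24) and the chemokine receptor Cxcr4 (1.73) were the other 2. Cx3cr1 had 675 CPM against 288 CPM, higher in all 7 hashtags but not 2-fold in each (1.03, 0.47 to 1.69).

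Fc and complement receptors did not move together. Fcgr4, the Fc receptor used by this subset, had 375 CPM in members and 23.0 CPM in Ly6c2-high monocytes (median log2 ratio 4.14, 1.99 to 4.84). Itgax, which encodes CD11c, had 139 CPM against 5.01 CPM (4.64, 3.08 to 5.73). The complement component C3 was lower (log2 ratios -2.62 to -1.07). The high-affinity receptor Fcgr1 had a median of -1.11 with 1 hashtag above 0 (-1.73 to 0.67), and the other 6 genes counted did not pass in either direction.

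The remaining genes of the 15 largest ratios came from no single list. They were Nrarp (median log2 ratio 6.59), a feedback inhibitor of Notch signalling; Slc12a2 (6.57), a sodium, potassium and chloride cotransporter; Lilra5 (6.19), an immunoglobulin-like receptor; Eno3 (6.14), a glycolytic enolase; Ets1 (5.46), a transcription factor; Dusp16 (5.40), a phosphatase of MAP kinases; and Ccnd2 (5.02), cyclin D2. They were picked for a high median among genes at least 2-fold higher in every hashtag. That the classes did not overlap in them follows largely from this choice. Nrarp, which is carried by 1 UMI each in members of hashtags 6 and 7 with 6 or more marker UMIs, ranged among members from 3.18 CPM in hashtag 6 and 5.62 in hashtag 7 to 49.7 to 76.1 CPM in the other 5.

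Genes of the classical programme were lower in 7 of 18 cases and higher in none (median log2 ratio -1.72). Without hashtags 6 and 7 the count was 11. Vcan, the matrix proteoglycan versican, had 36.6, 9.47, 8.36, 22.1, 22.02, 248 and 135 CPM in members and 362 to 678 CPM in Ly6c2-high monocytes. Its median log2 ratio was -4.69 (-5.49 to -1.44), and the members of hashtags 6 and 7 came nearest to the comparison class. With 6 or more marker UMIs, Vcan had 0 UMIs in the 10 members of hashtag 6 and 91.2 CPM in hashtag 7. F13a1, the coagulation factor XIII A chain, had a median of -4.05 (-5.70 to -1.87). Lyz2, the lysozyme gene, stayed abundant, at 12781 CPM against 34085 CPM (-1.35, -1.66 to -1.26).

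Chil3, a chitinase-like protein of young classical monocytes, Hp, which encodes haptoglobin, and Mgst1, a glutathione transferase, had medians of -2.88, -1.66 and -2.36. The ranges of Chil3 overlapped between the classes, since its members reached 2748 CPM in hashtag 6 while Ly6c2-high monocytes of hashtag 1 had 1850 CPM. With 6 or more marker UMIs the members reached 1152 CPM and no longer overlapped. Ccr2, the receptor that brings classical monocytes into tissue, had 442 CPM against 2055 CPM and a median of -2.22. It was less than 2-fold lower in hashtag 6 (1200.5 against 1946 CPM) and in hashtag 7 (1173 against 1836 CPM, a log2 ratio of -0.64). In members with 6 or more marker UMIs, Ccr2 was at 131 to 303 CPM in hashtags 1 to 5 and at 330 and 850 CPM in hashtags 6 and 7.

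The other genes named among the 15 lowest ratios had different known roles. Mmp8, neutrophil collagenase, had a median log2 ratio of -4.60 and Prtn3, proteinase 3, one of -4.34. Slpi, an inhibitor of such proteases, was at -2.52, Wfdc17 at -2.32 and Saa3, serum amyloid A, at -2.45 with overlapping ranges. The Ly6G-high cells had 687 CPM of Mmp8, 4160 of Slpi and 6448 of Wfdc17, against 265, 332 and 1517 CPM in Ly6c2-high monocytes. Prtn3 and Saa3 were lower there, at 6.54 and 9.77 CPM against 94.0 and 120 CPM. The part of neutrophil RNA in these differences was not tested. Fos, an immediate early factor, was at -2.72, while Jun was at 0.83. Of 9 immediate early genes counted, Fos was the 1 lower and Nr4a1 the 1 higher. Plcb1, a phospholipase C (-2.45), Ethe1, a mitochondrial sulphur dioxygenase (-2.08), Ms4a8a (-2.55) and the noncoding AI839979 (-2.64) were also among them.

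**Figure D3:**
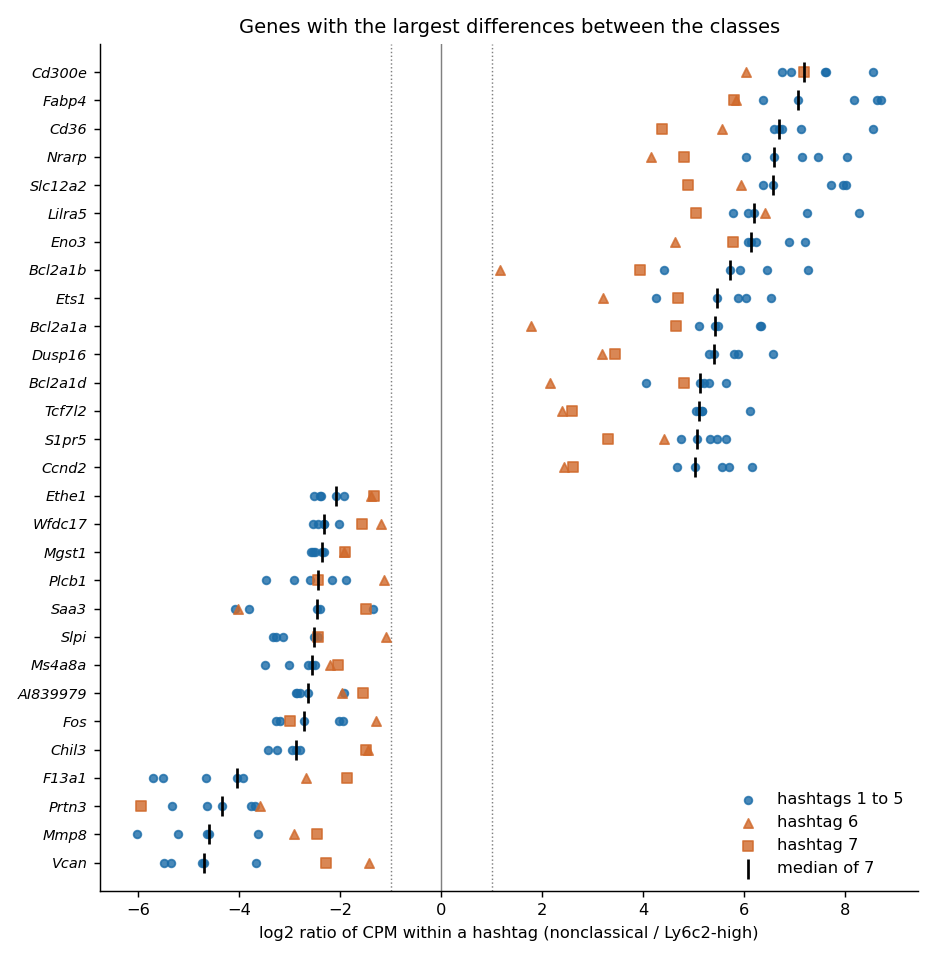
Log2 ratio of CPM (nonclassical over Ly6c2-high monocytes, horizontal axis) within each of the 7 hashtags for the 15 highest genes by median and for the lowest that are named in the text. Each symbol is 1 hashtag, the bar is the median and dotted lines mark ratios of -1 and 1. Every point lies outside the dotted lines, as the selection of these genes required, and hashtags 6 and 7 often lie nearest to 0, as for Tcf7l2 (2.38 and 2.59, median 5.11).

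Few interferon and cytokine genes passed this rule, as few genes did in all (2.5% higher and 0.865% lower). None of 13 interferon response genes was higher or lower in every hashtag, though their median log2 ratio was -0.96. Isg15 had a median of -1.94 with 1 hashtag at 0.13, and with at least 6 marker UMIs in every hashtag 4 of the 13 were lower. With gates after thinning to 2000 UMIs, where 3 hashtags had enough cells, 10 of 14 were lower, against 246 of 6068 genes in all. Ifitm3, the most abundant at 3361 CPM, had a median of -0.34. Tnf was the only 1 of 9 cytokine genes that was higher, at 31.8 CPM against 5.40 CPM (2.48, 1.94 to 2.85). Il1b had 177 CPM in members and 66.8 CPM in Ly6c2-high monocytes (2.01, 0.76 to 2.18), while the Ly6G-high cells, which held neutrophil RNA, had 2918 CPM.

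MHC class II genes were higher in 4 of 7 cases, with H2-Aa, H2-Ab1, H2-Eb1 and the invariant chain Cd74 at medians of 2.47, 2.37, 3.00 and 2.10. H2-Ab1 was detected in 247 and Cd74 in 666 of 950 members, and 390 members had at least 5 UMIs of the 7 genes together. In members with 6 or more marker UMIs, the 7 genes summed to 2963, 3828, 2744, 3498 and 2047 CPM in hashtags 1 to 5 and to 15813 and 4766 CPM in hashtags 6 and 7, against 1270 to 1652 CPM in Ly6c2-high monocytes. Members with 2 to 5 marker UMIs had 6566 to 25458 CPM. With at least 6 marker UMIs required in all 7 hashtags, none of the 7 genes was 2-fold higher in every hashtag (median log2 ratio 1.60), while 19 of 24 genes of the nonclassical programme were.

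**Figure D4:**
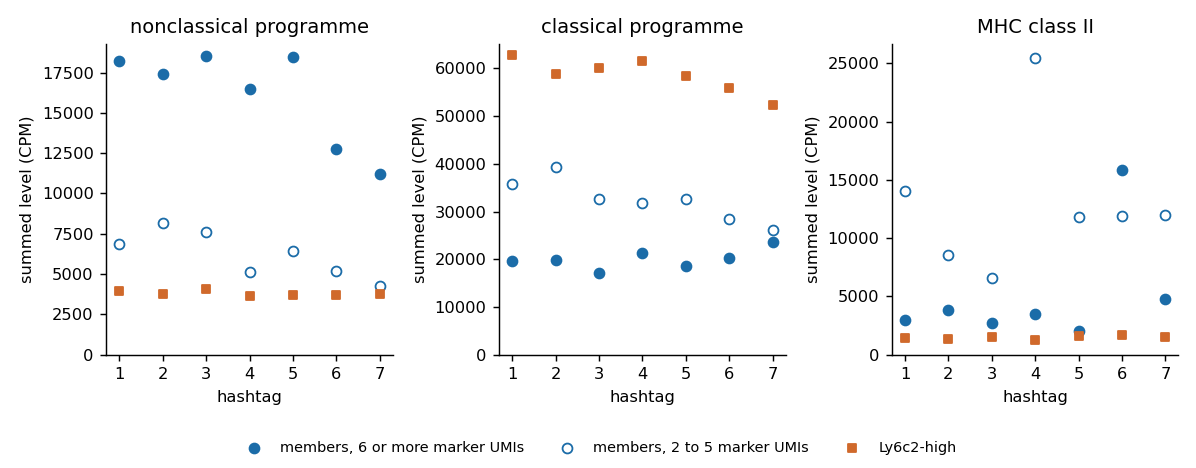
Summed level (CPM) of 24 nonclassical, 18 classical and 7 MHC class II genes in each hashtag, for members with 6 or more marker UMIs (filled circles), members with 2 to 5 (open circles) and Ly6c2-high monocytes (squares). The open circles lie between the other classes for both programmes and, except in hashtag 6, highest for MHC class II.

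Surface proteins were read independently of the RNA. Differences are in mean log2(UMI + 1) of an antibody within a hashtag, tested by an exact two-sided sign-flip permutation test over the 7 hashtags, with Benjamini-Hochberg adjustment over 11 antibodies. The smallest p that 7 hashtags allow is 0.0156. None of the 11 antibodies passed an adjusted p of 0.05, and 5 had an unadjusted p under that value. The 3 antibodies at the smallest p had an adjusted p of 0.0573 in this permutation test. Whether any antibody passes thus depends on how many reach or come near that floor. Members carried fewer antibody counts in all, a median of 232 per cell against 490. As shares of these counts, all 11 passed (adjusted p = 0.0156, exact permutation test) and 10 were higher, so the direction of small differences depends on this scaling. The counts include Ly6C, whose RNA the selection used, with medians of 34 in members and 204 in Ly6c2-high monocytes. Shares of the other antibodies are therefore partly set by the selection, and these passes are no separate support. The hashtags come from 1 pooled library and 1 antibody staining, so the p-values cover the spread between these samples only.

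CD54, the adhesion molecule ICAM-1, had median counts of 25, 28, 26, 31, 26, 40 and 32 in members of hashtags 1 to 7 and of 21, 24, 23, 23, 24, 27 and 27 in Ly6c2-high monocytes. It was higher in 7 of 7 hashtags, by 0.29 ± 0.11 (exact permutation p = 0.0156, adjusted 0.0573), although Icam1 RNA had a median log2 ratio of 0.00.

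The antibody to I-A/I-E, the MHC class II proteins, was higher in 6 of 7 hashtags, by 0.46 ± 0.46 (exact permutation p = 0.0312, adjusted 0.0688). Its median counts were low, 3 to 6 in members and 3 to 4 in Ly6c2-high monocytes, and 3 in the Ly6G-high cells. The largest difference, 1.33, was in hashtag 6. The FCeRIa antibody was higher in 7 of 7 hashtags by 0.17 ± 0.09 (exact permutation p = 0.0156, adjusted 0.0573), but the Ly6G-high cells had a median of 16 counts against 17 in members, and Fcer1a RNA had 1 UMI across all members. The CCR3 antibody differed by -0.05 ± 0.04 (exact permutation p = 0.0312, adjusted 0.0688) around a median of 15 in all 3 classes.

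Other antibodies differed by less than the spread between hashtags or near it. CXCR4 differed by -0.02 ± 0.15 (exact permutation p = 0.703, adjusted 0.703), with medians of 8 and 9 counts and of 11 in the Ly6G-high cells, while its RNA was higher in all 7 hashtags. CD49d, the integrin alpha 4 chain, differed by -0.09 ± 0.13 (exact permutation p = 0.109, adjusted 0.150), while Itga4 RNA had a median log2 ratio of 1.01. CD11b differed by -0.05 ± 0.28 (exact permutation p = 0.641, adjusted 0.703) and Itgam RNA by 0.16. CD64, Msr1 and SiglecF had adjusted p of 0.229, 0.123 and 0.115 in the same exact permutation test.

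Ly6C and CD115, whose genes or relatives the selection used, are given with no test. Ly6C had medians of 33 to 51 counts in members and of 175 to 233 in Ly6c2-high monocytes, a difference of -2.19 ± 0.43, with 52 in the Ly6G-high cells. CD115, the Csf1r protein, had a median of 22 counts in members, 24.5 in Ly6c2-high monocytes and 6 in the Ly6G-high cells. Among the members, hashtags 6 and 7 had the highest CD11b, 56 counts each against 18.5 to 34, and hashtag 6 the highest Ly6C (51 counts), CD54 (40) and FCeRIa (31). CD11b was highest in hashtags 6 and 7 in Ly6c2-high monocytes too (35.5 and 45 against 24 to 31) and in the Ly6G-high cells (23 and 21 against 15 to 20), and FCeRIa was highest in hashtag 6 in both (24 and 20).

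**Figure D5:**
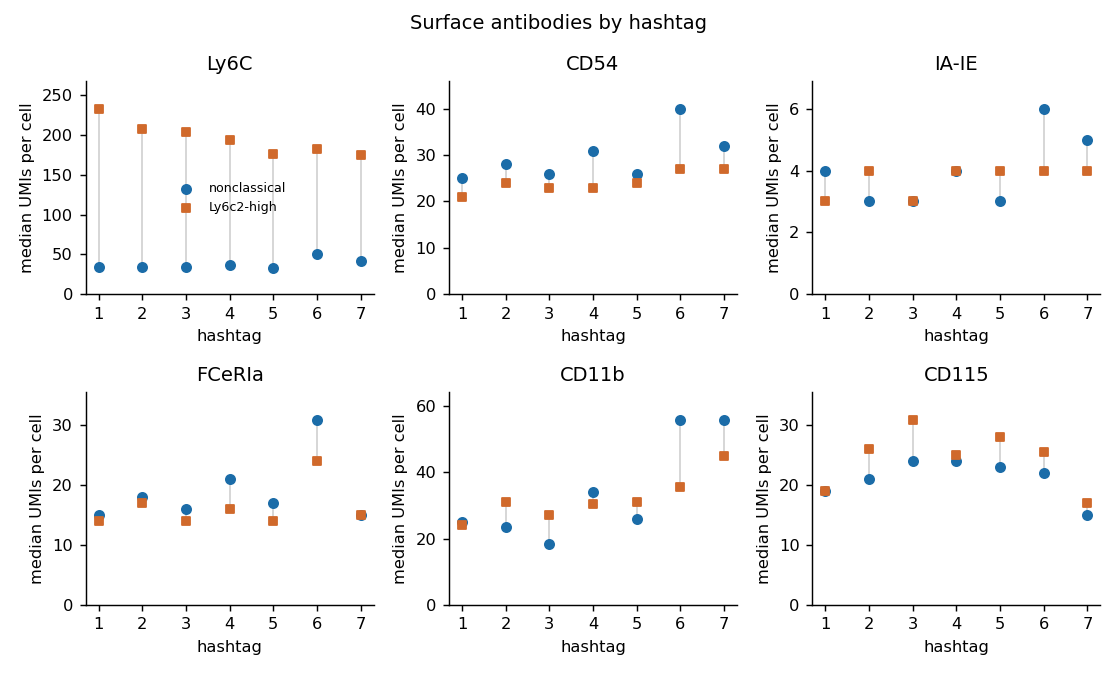
Median counts per cell (vertical axes) of 6 surface antibodies in nonclassical (circles) and Ly6c2-high monocytes (squares) of each hashtag. Ly6C was lower in members of all 7 hashtags, CD54 was higher by 2 to 13 counts, and I-A/I-E stood at 3 to 6 counts in members.

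Levels among the members of different hashtags are values of single samples, with no test. With 20 CPM added, 110 of 6883 genes (1.6%) differed at least 4-fold between the highest and the lowest hashtag. Hashtag 6 was highest in 52 of them and hashtag 7 in 27, and 18 genes remained when both were left out. Fn1, fibronectin, had 117, 69.8, 45.5, 124, 153, 1022 and 706 CPM in hashtags 1 to 7, and Thbs1, thrombospondin 1, had 16.3, 3.49, 1.86, 19.5, 6.52, 885 and 160.3 CPM. Thbs1 was also high in the Ly6c2-high monocytes of hashtags 6 and 7, at 589 and 553 CPM against 15.9 to 55.8. Fabp5, a fatty acid binding protein, was at 841 CPM in hashtag 6 and 35.9 to 138 CPM elsewhere. These high values lay mostly in members with 2 to 5 marker UMIs. With 6 or more, Fn1 was at 95.7 and 125 CPM in hashtags 6 and 7 against 24.2 to 109, Thbs1 at 42.5 and 11.4 CPM (4 and 2 UMIs) against 2.01 to 20.4, and Fabp5 at 63.8 and 120 CPM against 36.2 to 93.0.

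Several of the 12 widest ranges came from single cells. In hashtags 6 and 7, Spp1, osteopontin, had 564 and 616 CPM with a UMI in 2 cells each, and Arg1, arginase 1, had 271 and 211 CPM with a UMI in 2 and 3 cells. Of the chemokine Ccl24 in hashtag 6, 99.3% of UMIs were in 1 of 2 cells with any, and 1 cell held all Cxcl10 of hashtag 7. In members of hashtags 6 and 7 with 6 or more marker UMIs, Spp1, Arg1 and Cxcl10 had 0 UMIs and Ccl24 had 1 in each. In Ly6c2-high monocytes of hashtags 6 and 7, Spp1 was at 27.9 and 125 CPM, against 2.29 to 6.18 in the others. Arg1 was at 57.9 and 43.1 CPM there, against 0.513 to 2.09. Cxcl10 was highest in hashtag 1 in that class (34.7 CPM), and Ccl24 was at most 3.21 CPM. C1qb, a complement gene of macrophages, was detected in 14 cells of hashtag 4 (133 CPM), 2 of hashtag 6 (124 CPM) and 9 of hashtag 7 (492 CPM). Ly6c2-high monocytes had 90.5 and 151 CPM of C1qb in hashtags 6 and 7, against 1.91 to 24.6 in the others. The immunoglobulin genes Igkc, Igha and Jchain were high in hashtags 1, 2 and 4, where 4 members held 99.3% of all UMIs of such genes. Ccl5 was at 274 CPM in hashtag 1, with 201 of 205 UMIs of all members in 1 cell.

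Within the members that carried 6 or more marker UMIs, hashtags 6 and 7 still differed from the others. The nonclassical programme list summed to 12740 and 11203 CPM there, against 16480 to 18527 CPM in hashtags 1 to 5. Chil3 was at 766 and 1152 CPM against 185 to 684, and Cd209a, a lectin of monocyte-derived dendritic cells, at 276 and 79.8 CPM against 0 to 19.9. These values rest on 10 and 17 cells.

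Markers of most other cell types were low in members. The 10 neutrophil genes summed to 706 to 1843 CPM in members and 853 to 9374 CPM in Ly6c2-high monocytes, against 211975 CPM in the Ly6G-high cells. The 9 macrophage genes summed to 214 to 1032 CPM with the highest value in hashtag 7, against 223 to 540 CPM in Ly6c2-high monocytes. Lyve1 and Timd4 were at 0 in members. Dendritic cell genes reached 172 CPM, with the highest value in hashtag 6. T cell and NK cell genes had a UMI in 6 members each, and 1 member had a UMI of the 6 heart tissue genes. The part of these cells in the differences between hashtags was not tested.

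Cells with the same RNA pattern were counted in the other libraries of the series, which hold leukocytes of the heart at steady state and after infarction, without the antibody step. They were 1.73% of Csf1r+ cells of the CD45+ heart at steady state (10 of 577), 0.985% at day 1 (2 of 203), 6.40% at day 3 (42 of 656), 5.45% at day 5 (42 of 770) and 3.24% at day 7 (25 of 771). In a CD11b+ heart pool they were 6.43% at day 1 (20 of 311), 10.3% at day 3 (152 of 1471) and 11.2% at day 5 (165 of 1468). The blood and heart pool, counted in the same way, gave 19.5% (1212 of 6217). Each day was 1 library or hashtag of pooled mice, so no test was possible.

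The gated cells of those heart libraries differed in part of their RNA from the cells gated in the same way in the blood and heart pool. The macrophage gene C1qa had 334 to 4044 CPM in 7 of the 8 heart samples and was at 0 in the 2 cells of day 1, against 37.4 CPM in the pool. Cd300e had 0 to 45.0 CPM there against 354 CPM, and the nonclassical programme list summed to 3335 to 11354 CPM against 14383. Other genes of that list were mixed. Nr4a1 was at 593 CPM at steady state, 668 in the 2 cells of day 1 and 148 to 369 elsewhere, against 438. Cd36 was at 328 and 289 CPM at days 1 and 5 of the CD11b+ heart pool and 0 to 178 elsewhere, against 187. Fabp4 was at 1654 CPM at day 1 of that heart pool and 0 to 105 elsewhere, against 285. When each cell was thinned to 2000 UMIs, the heart shares were 0.200% to 3.59% while the pool's was 21.5%. The cells gated in the heart libraries were therefore not used as nonclassical monocytes. Whether they belong to this subset was not tested.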

How the data were processed

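The blood and heart pool was deposited as a matrix of UMI counts per barcode for genes, 7 hashtags and 14 surface antibodies. The authors made these counts with Cell Ranger (version 3.0.2 per the file headers, build mm10 per the submitters' processing notes), and nothing in them was normalized. The deposited counts of the 5 CD45+ libraries and of the CD11b+ heart pool were used for 1 comparison only. The cell caller and the annotation release are not given in the sources used here.

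Gates were applied to the counts, and UMIs were summed per hashtag and class. Summed totals were 314035 to 2260064 UMIs in members and 1866799 to 6952524 in Ly6c2-high monocytes. Intervals are exact (Clopper-Pearson or Poisson, 95%) and cover counting error only; UMIs count molecules. Barcodes with several hashtags (1122, 9.68%) were left out, about 204 doublets of 1 hashtag (1.97%) remain by expectation, and no doublet caller was run. Another 120 barcodes met every step but the hashtag step. Of the pool's barcode sequences 28 also occur in the CD11b+ heart pool, 1 of them a member's.

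Members, gene lists and tests were chosen with earlier results of these data known. The named genes were the 15 highest and 15 lowest medians among the genes that passed in every hashtag with at least 50 CPM, and the 12 widest ranges with at least 100 CPM, without ribosomal, mitochondrial, haemoglobin, Gm and Rik genes. Beyond these, up to 6 genes per list were named. One gene and the antibody to its protein are counted but not reported here. TMM factors came from edgeR 4.0.16 (R 4.3.3), and the rest used Python 3.11.15 with numpy 2.4.6, scipy 1.17.1 and pandas 2.3.3. Alternatives changed the gate, the scaling, the filter, the added count and the hashtags used.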

Additional observations from a re-analysis of the deposited data

How the results depend on the processing

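Shares of members moved by more than their interval in 11 of 56 cases, the lowest 4.02% in hashtag 6 with at least 6 marker UMIs. Counts of genes moved with the gate, but never to fewer than 128 higher or 46 lower genes. For genes higher in members (150), the count was 430 with gates after thinning to 2000 UMIs (3 hashtags then had enough cells), 313 with no filter on low values, 348 without hashtags 6 and 7, 400 with at least 6 marker UMIs (5 hashtags had enough cells, and all 7 gave 222) and 150 to 199 leaving out each hashtag in turn. For lower genes (52) it was 89 with at least 3 marker UMIs, where 6 hashtags had enough cells, and 246 thinned. It was 165 without hashtags 6 and 7 and 203 with at least 6 marker UMIs (84 over all 7 hashtags). Leaving out each hashtag gave 52 to 89, with the highest without hashtag 6. TMM scaling moved the median gene from 0.17 to 0.0033 and gave 128 higher and 66 lower genes. Of 630 values of the named genes of this comparison, 21 moved by more than the spread between hashtags and 0 reversed.

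The count of genes that differed 4-fold among hashtags (110) was 55 with at least 3 marker UMIs (6 hashtags had enough cells) and 1 after thinning. It was 42 with 50 CPM added, 18 without hashtags 6 and 7, and 69 to 108 leaving out each hashtag, with the lowest without hashtag 6. Hashtags with fewer than 20 members were left out in each setting. The part of any hashtags left out in the counts at 3 marker UMIs and after thinning was not tested.

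No antibody passed in the main test, but 4 did (among them CD54, FCeRIa and CCR3, adjusted p = 0.0430 in the exact permutation test) with Ly6c2 at 0, with the top hashtag at least 5 times the second, with at most 5% mitochondrial counts and with Ly6c2-high monocytes of at least 10 UMIs. In these settings 4 antibodies stood at the smallest p, against 3 in the main test, and CCR3 had joined them. The differences hardly moved, with CD54 at 0.28 and CCR3 at -0.05 with Ly6c2 at 0. These passes reflect how many antibodies reached the floor. As shares of the surface antibody counts of a cell, which include the Ly6C linked to the selection, all 11 passed. Members had a median of 232 such counts against 490, so that scaling raised every antibody, and CD11b (0.79), CXCR4 (0.79), Msr1 (0.66), CCR3 (0.79), CD49d (0.76) and CD115 (0.60) changed sign. Small differences also changed sign for CD11b without Spn in the gate (0.019) and with the log2 of the median (0.0012), and for CD64 after thinning (-0.036). Leaving out each hashtag gave -0.12 to 0.016 for CD11b and -0.057 to 0.013 for CXCR4, both above 0 without hashtag 3. With 6 hashtags the smallest p is 0.03125, and no antibody passed. Only 3 or 4 antibodies stood at that floor in each case, too few for any to pass after adjustment.

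In the heart libraries, thinning gave 0.227% at steady state, 0.200% at day 7, 3.59% at day 3, 1.03% at day 5 and, above the main value, 2.38% at day 1 (2 of 84 cells) in CD45+ cells, and 1.92%, 2.70% and 0.476% at days 1, 3 and 5 in the CD11b+ pool. At least 3 marker UMIs gave 1.30% at day 7, 0% at day 1, 3.96% at day 3, 2.21% at day 5 and 3.86%, 6.66% and 5.86% in the CD11b+ pool. Without Spn the shares were 0.520% at steady state, 1.43% at day 7, 3.38% at day 5 and 7.41% and 5.25% at days 3 and 5 of the CD11b+ pool. The hashtags' unknown conditions, 29 and 31 members in hashtags 6 and 7, and 1 library are the main limits.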

Other observations

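Outside the Ly6G antibody limit, 262 barcodes met every other step of the nonclassical selection. Their median Ly6G antibody count was 23 and their median depth 10672 UMIs, against 6978 UMIs in members. They carried both markers and neutrophil RNA, with medians of 11.5 marker UMIs and 189.5 UMIs of S100a8, a calcium-binding protein abundant in neutrophils. Members had a median of 2 UMIs of S100a8, and the 3764 cells with more than 4 counts of the Ly6G antibody and no Csf1r had 262. There were 16, 65, 23, 68, 37, 31 and 22 of these barcodes in hashtags 1 to 7. They were in no comparison.

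At an equal depth of 2000 UMIs per cell, members had a median of 1080 genes (hashtag medians 1033 to 1093.5) and Ly6c2-high monocytes 1009 (987.5 to 1024). Members were thus not poorer in genes at a matched depth, although at full depth they had a median of 2511 genes against 3512.5. The 13 members under 2000 UMIs were left out of the thinned values.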
